A study of Mus musculus with 4 samples.

Results

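Slc7a5, Slc3a2, Atf4, Atf5, Chac1, Asns, Shmt2, Mthfd2, Psat1 and Trib3 are 10 of the 31053 genes counted in leukocytes of mouse fibrosarcomas. They were grouped as genes of amino acid transport and of the Atf4 response. The set was selected on measured values: the difference in expression between knockout and control tumours in NK, T, dendritic and macrophage cells of these same libraries. Values of that comparison in those cells are therefore given as a description, with no test. Each of the 10 genes was found by its symbol, and none was dropped.

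The study compared tumours whose cancer cells lacked Raldh1 and Raldh3, enzymes that make retinoic acid (Raldh1/3 DKO), with Cas9 Control tumours. Tumours of both groups were untreated and were taken on day 11 after implantation, and live CD45+ cells were sorted for 10x Genomics 3′ sequencing. Each group had 2 libraries, and each library pooled 2 tumours, so 4 tumours stood behind each group. The strain, sex and age of the mice, the guides, whether the control cells carried one and the number of cell clones behind each line were not given in the sources used here.

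Cells answer amino acid shortage, unfolded protein, haem shortage or viral RNA through kinases that phosphorylate eIF2 alpha. Most translation then slows, while translation of the Atf4 transcript rises, so that the Atf4 protein is set largely after transcription. Atf4 pairs with C/EBP family proteins and switches on genes for amino acid import, amino acid synthesis and tRNA charging. Activated T and NK cells raise several of the same genes through mTORC1 and Myc as they grow. Atf4 protein, Atf4 binding and amino acid levels were not measured, so the name of the set comes from the literature and not from these data.

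The libraries held 9206, 8668, 7201 and 5429 barcodes in control 1, control 2, DKO 1 and DKO 2, with 57458026 to 80032966 UMIs (unique molecular identifiers, which count transcripts) each. After filtering, 25881 of 30504 barcodes fell into 23 clusters, named by marker genes as "like" a cell type. Pairs of libraries shared 20 to 38 barcodes. NK-like cells numbered 313 to 356 per library, T-like cells 699 to 1363, dendritic-like cells 266 to 373 and monocyte/macrophage-like cells 2093 to 4761. The NK class was cluster 15 alone. Clusters 0 (Gm42418), 12 (Trdc, Klra1), 13 (Pclaf, Top2a), 14 (Gzmg, Gzmf) and 22 (Il13) stayed unnamed under the marker rule, outside the classes. Those described below are given by number. The targeted genes could hardly be checked, as the sort removed most tumour cells: Aldh1a1 (Raldh1) had 1 and 0 UMIs in control against 0 and 1 in DKO, and Aldh1a3 (Raldh3) had 28 and 9 against 10 and 23.

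Levels are CPM, the UMIs of a gene scaled to a common total over the cells of a class in a library. Differences are log2 DKO over control ± standard error from edgeR. Overlap between groups was judged on CPM, without the TMM factors (a scaling between libraries) of the edgeR fit. Without them the median log2 value over all genes tested was 0.07 in NK-like and 0.07 in T-like cells. It was 0.08 in dendritic-like and 0.03 in monocyte/macrophage-like cells. The part of that shift in narrow gaps between groups was not tested. Since the 3′ assay counts 1 tag per transcript, CPM does not need a correction for gene length, but levels are not ranked between genes here.

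Promoter letters are shown first because 3 of the genes hold the composite C/EBP-ATF motif through which Atf4 is known to act. The motif searched was TGATGNAA on both strands, in windows of 300 bases that start 250 bases before a transcription start (RefSeq, GRCm38.p6). Of the 10 genes, 9 had a window. It was found in 3 of those 9, Chac1, Asns and Trib3, and in 4.511% of the 27025 genes with such windows. The E-box CACGTG, bound by Myc and related factors, was found in 0 of the 9 and in 8.093% of those genes. A match describes letters and not binding, and the absence of one says only that the letters are not in that window. The stretches of 30 bases around the 3 matches are given 5′ to 3′ on the gene's strand, with the match in capitals.
Chac1: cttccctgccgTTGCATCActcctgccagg
Asns: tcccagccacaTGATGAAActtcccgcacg
Trib3: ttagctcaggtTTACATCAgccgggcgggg
The Chac1 match lay at position -193 from the RefSeq start (chr2:119351038-119351067, plus strand, for the stretch). The Asns match lay at -23 (chr6:7693214-7693243, minus strand) and the Trib3 match at 15 (chr2:152344028-152344057, minus strand), just past the RefSeq start. The gene coordinates given below come from another annotation with other starts. By it Asns starts at 7693254, so that its match lies inside the gene. Trib3 starts at 152344032, so that its match lies before the start. Chac1 and Trib3 hold the motif on the opposite strand to their transcript, and Asns on its own strand.

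The longer upstream sequence of Chac1 is printed because Chac1 had the highest log2 value of the set in monocyte/macrophage-like cells. It covers 237 bases up to the annotated start of the gene (chr2:119350992-119351228, plus strand), with the same match in capitals.
Chac1 upstream: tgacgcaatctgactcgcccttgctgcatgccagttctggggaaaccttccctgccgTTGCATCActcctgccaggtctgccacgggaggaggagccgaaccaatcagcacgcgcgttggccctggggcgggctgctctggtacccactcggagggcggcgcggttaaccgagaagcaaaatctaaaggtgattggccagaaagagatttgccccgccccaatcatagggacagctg

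Slc7a5 and Slc3a2 encode the light and heavy chains of LAT1, the exchanger that brings leucine and other large neutral amino acids into the cell. Slc7a5 (chr8:121881150-121907694, GRCm38, minus strand) stood at 11.7 and 4.10 CPM in control against 18.5 and 32.2 CPM in DKO NK-like cells, in the order replicate 1 and 2. In T-like cells it stood at 10.7 and 6.85 CPM in control against 29.1 and 21.6 CPM in DKO. Both DKO libraries lay above both control libraries in each class, with log2 values of 1.61 ± 0.37 in NK-like and 1.45 ± 0.24 in T-like cells. In dendritic-like cells Slc7a5 was at 17.3 and 6.50 CPM against 23.2 and 34.8 CPM (log2 1.16 ± 0.37). Levels in monocyte/macrophage-like cells were 5.48 and 2.62 against 5.48 and 7.16 CPM (log2 0.62 ± 0.33), where DKO 1 exceeded control 1 by a margin that rounding hides. The NK values rest on 18, 6, 33 and 69 UMIs, and in DKO 2 a single cell held 15 of the 69. Slc7a5 lies within Gm20388, annotated on the other strand.

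Slc3a2 (chr19:8706882-8723369, minus strand), whose product also carries integrin signals, moved less. NK-like cells had 346 and 279 CPM in control against 343 and 368 CPM in DKO, with overlapping groups (log2 0.12 ± 0.13). T-like cells had 236 and 217 CPM in control against 322 and 279 CPM in DKO, without overlap (log2 0.34 ± 0.13). Dendritic-like cells had 227 and 227 against 286 and 263 CPM, again without overlap (log2 0.20 ± 0.15). The monocyte/macrophage-like levels of 227 and 241 against 264 and 222 CPM overlapped (log2 0.03 ± 0.15), and the sign turned to -0.05 without control 1 and -0.14 without DKO 1. Slc7a5 was thus higher in both DKO libraries of all 4 classes, and Slc3a2 in 2 of 4. In monocyte/macrophage-like cells the Slc7a5 gap was very narrow, at 5.476 CPM in control 1 against 5.484 CPM in DKO 1. A difference between the 2 chains of the transporter was not tested.

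Atf4 (chr15:80255184-80257541, plus strand) encodes the transcription factor that gives the response its name. Its transcript was at 277 and 249 CPM in control against 326 and 361 CPM in DKO NK-like cells, and at 190 and 163 against 225 and 236 CPM in T-like cells. In dendritic-like cells it was at 192 and 166 against 249 and 340 CPM. Among monocyte/macrophage-like cells it stood at 230 and 196 against 236 and 317 CPM. The groups did not overlap in any of the 4 classes, and log2 values were 0.32 ± 0.12, 0.32 ± 0.12, 0.64 ± 0.16 and 0.35 ± 0.16 in that order. DKO 1 lay close to control 1 in monocyte/macrophage-like cells, and DKO 2 was the highest library in each class. The values rest on 364 to 9905 UMIs per library and class.

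Atf5 (chr7:44812256-44816658, minus strand), a related factor linked to mitochondrial stress, was lower in level and differed more. In dendritic-like cells it was at 20.5 and 14.5 CPM in control against 47.5 and 47.6 CPM in DKO (log2 1.34 ± 0.20). In NK-like cells 3.90 and 2.05 CPM in control stood against 7.27 and 16.8 CPM in DKO (log2 1.95 ± 0.52), on only 6, 3, 13 and 36 UMIs. T-like cells had 11.2 and 12.9 against 16.7 and 16.8 CPM (log2 0.42 ± 0.20). Monocyte/macrophage-like cells had 14.9 and 13.4 against 16.8 and 26.2 CPM (log2 0.57 ± 0.19). No class showed an overlap. The 5′ end of Atf5 overlaps Nup62 and Il4i1 on the other strand, and whether the counting used strand was not given in the sources used here. Without it, reads of such a pair cannot be told apart.

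Chac1 (chr2:119351229-119354381, plus strand) encodes a glutathione-degrading enzyme, and Trib3 (chr2:152337422-152344032, minus strand) a pseudokinase that restrains Akt and Atf4. Both are textbook targets of strong Atf4 signalling. Chac1 in monocyte/macrophage-like cells was at 0.348 and 0.230 CPM in control against 1.27 and 2.06 CPM in DKO, on 15, 11, 45 and 62 UMIs (log2 2.48 ± 0.40). This was the highest log2 value of any of the genes in any class, at a very low level. Dendritic-like cells had 6.12 and 1.15 against 5.44 and 9.81 CPM, with overlap (log2 0.91 ± 0.57). Chac1 fell below the filter on low counts in T-like cells, where 5 and 3 UMIs in control libraries stood against 14 and 16 in DKO, and in NK-like cells, with 3 and 0 against 1 and 5.

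Trib3 in T-like cells was at 1.03 and 1.1 CPM in control against 6.24 and 3.14 CPM in DKO, on 5, 4, 47 and 18 UMIs (log2 2.10 ± 0.53). Dendritic-like cells had 2.13 and 4.97 against 8.33 and 17 CPM (log2 1.87 ± 0.47). Monocyte/macrophage-like cells had 2.16 and 1.74 against 2.90 and 4.43 CPM (log2 0.87 ± 0.27). In these 3 classes Trib3 did not overlap between groups. In NK-like cells it failed the filter, at 6, 1, 2 and 20 UMIs, with overlap.

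Asns (chr6:7675169-7693254, minus strand) encodes asparagine synthetase. T-like cells held 8.47 and 8.22 CPM in control against 20.4 and 16.1 CPM in DKO (log2 1.07 ± 0.22). Dendritic-like cells held 9.05 and 7.26 against 17.4 and 27.5 CPM (log2 1.38 ± 0.28). Monocyte/macrophage-like cells held 5.10 and 3.92 against 6.19 and 8.75 CPM (log2 0.70 ± 0.21). These 3 classes showed no overlap, and in T-like cells the 2 control libraries lay close together. NK-like cells failed the filter at 4, 6, 4 and 27 UMIs, where DKO 2 alone stood high.

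Psat1, Shmt2 and Mthfd2 encode successive parts of the route from a glycolytic intermediate to serine and mitochondrial one-carbon units, which feed purine and thymidylate synthesis. Shmt2 (chr10:127517123-127522444, minus strand), the mitochondrial serine hydroxymethyltransferase, was at 22.5 and 18.9 CPM in control against 31.6 and 34.6 CPM in DKO T-like cells (log2 0.60 ± 0.15). In NK-like cells 28.0 and 19.1 stood against 28.5 and 45.8 CPM (log2 0.60 ± 0.24). In monocyte/macrophage-like cells 20.8 and 14.1 stood against 21.7 and 26.8 CPM (log2 0.45 ± 0.18). These 3 classes did not overlap, though DKO 1 lay just above control 1 in 2 of them. Dendritic-like cells overlapped at 21.8 and 7.64 against 18.5 and 34.6 CPM (log2 0.74 ± 0.46). The 3′ end of Shmt2 overlaps Ndufa4l2 on the other strand.

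Mthfd2 (chr6:83305691-83325908, minus strand), the mitochondrial methylenetetrahydrofolate dehydrogenase, was at 52.7 and 49.8 CPM in control against 74.8 and 64.8 CPM in DKO T-like cells (log2 0.38 ± 0.14). Dendritic-like cells had 140 and 118 against 162 and 157 CPM (log2 0.24 ± 0.15). Monocyte/macrophage-like cells had 33.4 and 24.8 against 35.7 and 38.8 CPM (log2 0.33 ± 0.14). NK-like cells had 22.1 and 19.1 against 22.4 and 49.97 CPM (log2 0.76 ± 0.32), so that DKO 2 carried most of the difference there. Groups did not overlap in any class, though in NK-like cells DKO 1 lay just above control 1.

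Psat1 (chr19:15904678-15947337, minus strand), the aminotransferase of serine synthesis, differed least evenly. NK-like cells had 15.6 and 12.3 CPM in control against 19.6 and 27.1 CPM in DKO, without overlap (log2 0.68 ± 0.28). The groups overlapped in T-like cells, at 23.5 and 18.1 against 26.4 and 23.4 CPM (log2 0.19 ± 0.18). They also overlapped in dendritic-like cells, at 13 and 10.7 against 8.70 and 26.8 CPM (log2 0.54 ± 0.44). The monocyte/macrophage-like levels, 18.1 and 15.5 against 18.7 and 13.4 CPM, gave the only negative value in the 4 classes (log2 -0.09 ± 0.19). Without DKO 2 the Psat1 value turned to -0.47 in dendritic-like and to 0.16 in monocyte/macrophage-like cells.

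**Figure D1:**
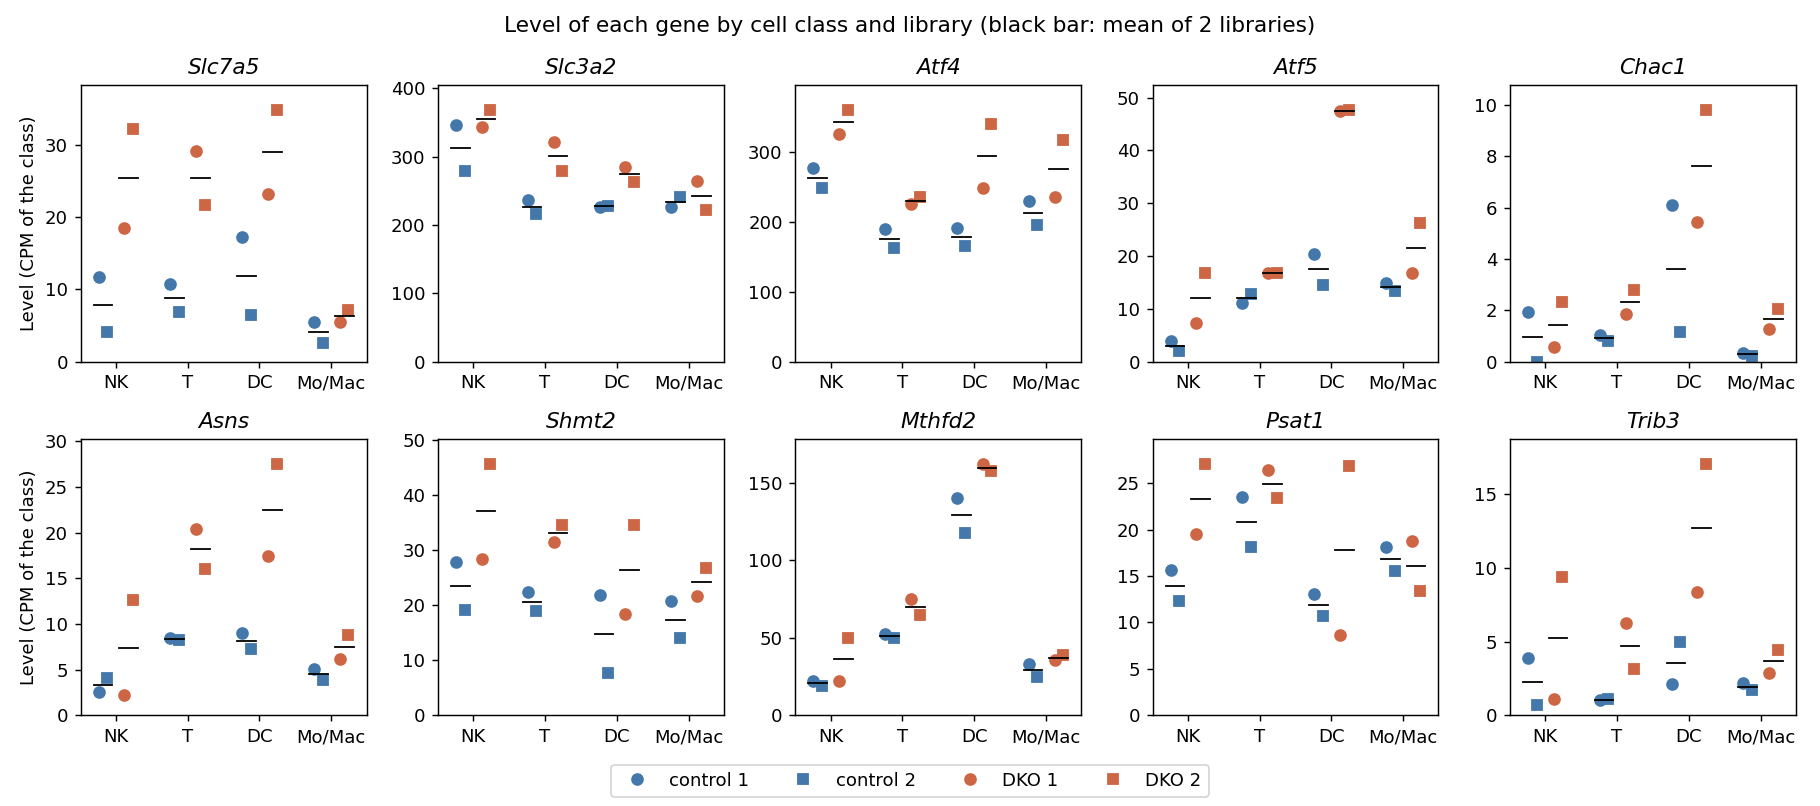
Level of each of the 10 genes (vertical axis, CPM of the class, from 0) in NK-like, T-like, dendritic-like (DC) and monocyte/macrophage-like (Mo/Mac) cells, 1 point per library, with the mean of 2 libraries as a black bar. Atf4 and Slc7a5 have both DKO points above both control points in all 4 classes, Slc7a5 in Mo/Mac by a very narrow margin. Psat1 does so in NK-like cells only.

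Over the set, 6 of 10 genes in NK-like cells had both DKO libraries above both control libraries, where 27.3% of the 8655 genes tested did. The counts were 9 of 10 in T-like cells (31.2% of 10479 genes), 7 of 10 in dendritic-like cells (26.5% of 9776) and 8 of 10 in monocyte/macrophage-like cells (21.6% of 12695). The shares cover only genes that passed the filter. Among such genes of the set, the counts were 6 of 7 in NK-like and 8 of 9 in T-like cells. None of the 10 was lower in both DKO libraries in any of the 4 classes. The rule chose the genes on this contrast, so nothing is read from these shares. The median log2 value was 0.68 over the 7 genes that passed the filter in NK-like cells and 0.42 over the 9 in T-like cells. It was 0.82 over all 10 in dendritic-like and 0.51 over all 10 in monocyte/macrophage-like cells, and over all genes tested it lay between -0.00 and 0.01 in the 4 classes. No difference of the change between classes was tested, since the rule used each class.

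**Figure D2:**
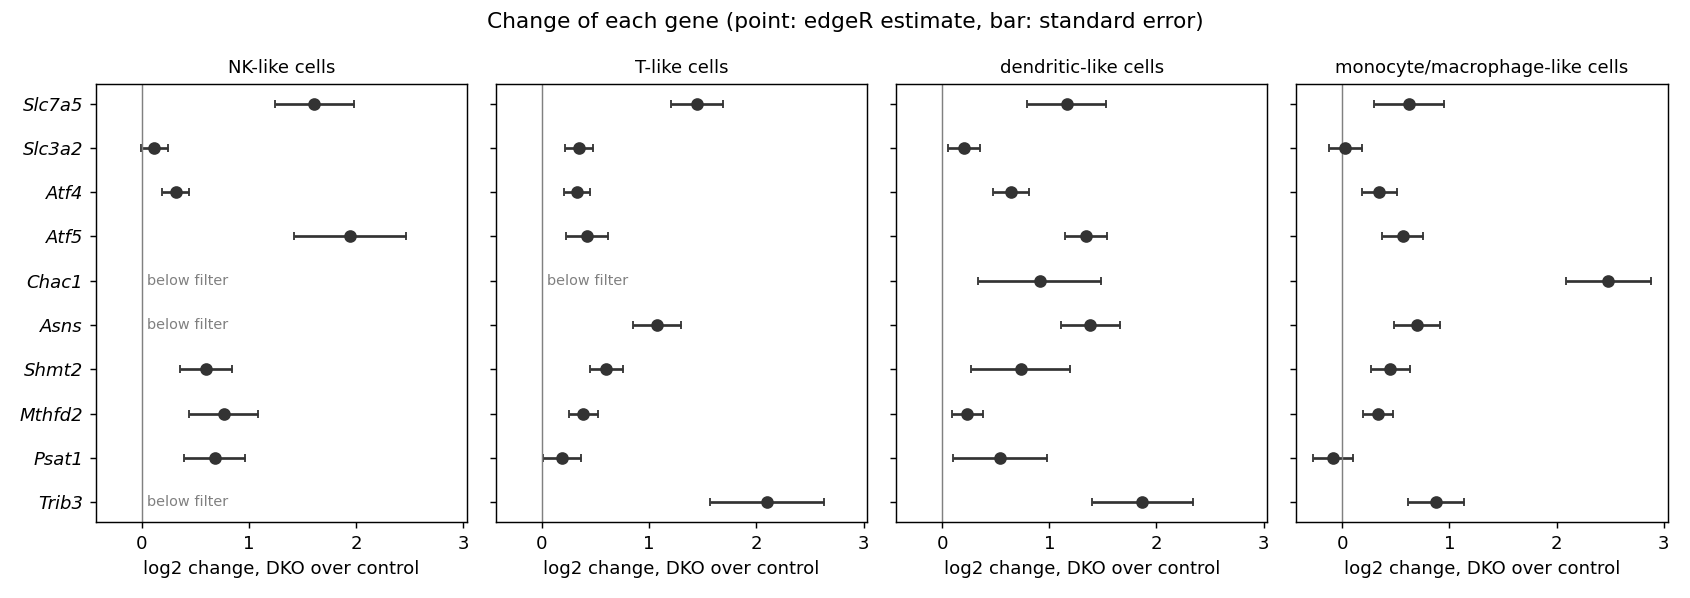
Log2 change of each gene, DKO over control (horizontal axis), in the 4 classes, as the edgeR estimate (point) with its standard error (bar). Values run from -0.09 (Psat1) to 2.48 (Chac1), both in monocyte/macrophage-like cells, and genes below the filter on low counts have no point.

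DKO 2 was the highest of the 4 libraries for 10 of 10 genes in NK-like, 4 in T-like, 8 in dendritic-like and 8 in monocyte/macrophage-like cells, and control 2 was the lowest for 9, 8, 7 and 8. DKO 2 was also the deepest library per cell, with a median of 5577 UMIs per NK-like cell against 3895 to 4454 in the other 3, and of 12244 per monocyte/macrophage-like cell against 8740 to 10014. The part of depth in the levels was not tested. Without DKO 2 the median log2 value of the genes passing the filter was 0.27 in NK-like, 0.52 in T-like, 0.46 in dendritic-like and 0.32 in monocyte/macrophage-like cells. Without control 2 it was 0.56, 0.51, 0.49 and 0.25. T-like cells were the class in which the median moved least.

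Markers of tumour cells or fibroblasts (12 genes) summed to 3.25 and 6.83 CPM in control against 2.24 and 11.2 CPM in DKO NK-like cells, with Dcn, Lum and Col12a1 at 0. In T-like cells the sums were 4.96 and 4.38 against 3.58 and 4.54 CPM, with Col5a1 at 0. They were 7.72 and 8.79 against 5.44 and 7.70 CPM in dendritic-like cells, with Lum at 0, and 15.7 and 11.6 against 9.39 and 14.9 CPM in monocyte/macrophage-like cells. These sums were low in all 4 classes and were not higher in both DKO libraries in any. Monocyte/macrophage markers (30 genes) summed to 2232 and 2642 CPM in control against 2224 and 1849 CPM in DKO T-like cells. Of the 30, 19 were lower and 2 higher in both DKO libraries. In NK-like cells that list summed to 2282 and 2667 against 2154 and 1888 CPM, with 20 of 30 lower and 1 higher. T cell markers (18 genes) in monocyte/macrophage-like cells summed to 28.8 and 25.1 against 36.0 and 39.3 CPM, with 11 of 18 higher. Dendritic markers (22 genes) in that class summed to 414 and 376 against 482 and 533 CPM, with 7 of 22 higher and 3 lower. NK markers (14 genes) there summed to 37.7 and 42.8 against 53.4 and 57.99 CPM, with 4 of 14 higher. Endothelial markers (6 genes) there summed to 113 and 125 against 151 and 153 CPM, with 4 of 6 higher.

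Plasmacytoid dendritic markers (10 genes) summed to 206 and 168 against 252 and 233 CPM in NK-like cells, with 4 of 10 higher, and to 207 and 182 against 269 and 249 CPM in T-like cells, with 3 of 10 higher. Dendritic markers in T-like cells summed to 179 and 145 against 190.0 and 203 CPM, with 1 of 22 higher and 3 lower. In dendritic-like cells NK markers summed to 518 and 558 against 429 and 402 CPM, with 4 of 14 lower and 2 higher. Over all genes tested, 27.3% in NK-like and 31.2% in T-like cells were higher in both DKO libraries. That share was 26.5% in dendritic-like and 21.6% in monocyte/macrophage-like cells. In either direction, 3757 of 8655 genes did not overlap in NK-like cells, of which 2359 were higher in DKO and the rest lower. T-like cells had 5110 of 10479, with 3273 higher. Dendritic-like cells had 3966 of 9776, with 2592 higher, and monocyte/macrophage-like cells 5225 of 12695, with 2744 higher. The part of any of these lists in the levels was not tested.

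Among 12 genes of the dissociation response, Hspa1b, a heat-shock chaperone, rose in NK-like cells from 17.6 and 12.3 to 60.4 and 59.8 CPM (log2 1.93, edgeR adjusted p = 1.37e-05, higher in 2 of 2 DKO libraries). Its near-identical copy Hspa1a did not pass (log2 2.09, edgeR adjusted p = 0.424), and how reads split between both is uncertain. In the same list Nr4a1, an early-response gene of antigen receptor signalling, rose in T-like cells (log2 0.83, edgeR adjusted p = 0.0275, higher in 2 of 2 DKO libraries). Over the list, 4 of 12 genes were positive in NK-like (median log2 -0.08), 10 in T-like (0.10), 10 in dendritic-like (0.27) and 8 in monocyte/macrophage-like cells (0.13). Hspa1b did not pass in dendritic-like (log2 0.85, edgeR adjusted p = 0.601) or monocyte/macrophage-like cells (log2 0.78, edgeR adjusted p = 0.390), though both DKO libraries were higher in each. The share of this list in the values of the 10 genes was not tested. Of 12 cell cycle genes (4 tested in NK-like cells), 0 passed in any of the 4 classes by edgeR, and 2 of 4 were positive in NK-like cells (median log2 0.14) and 3 of 12 in T-like cells (median -0.22). In dendritic-like cells 10 of 12 were positive (median 0.35), and in monocyte/macrophage-like cells 11 of 12 (median 0.26).

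The make-up of the classes differed between libraries. The Cd8b1 cluster 4 made up 41.9% and 39.2% of T-like cells in control and 53.0% and 32.5% in DKO. The largest cluster of the monocyte/macrophage class in control was the Cd163 cluster 3 (31.5% and 31.4%, against 20.8% and 20.3% in DKO). In DKO 1 the Ly6i cluster 6 was ahead (22.5%), and in DKO 2 the Apol7c cluster 2 (27.8%). With each cluster of a class weighted equally, log2 values were taken from mean CPM, without the edgeR fit and its TMM factors. They are therefore not on the same measure as the edgeR medians above. Their median over the genes was 0.54 in T-like, 0.98 in dendritic-like and 0.61 in monocyte/macrophage-like cells. Under that weighting Slc7a5 was at 1.48, 1.15 and 0.91 and Asns at 1.02, 1.34 and 1.17.

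Levels between classes were not used by the rule, and were tested over 11111 genes in 6 pairs of classes with the library as a block, so the groups share their 4 libraries. Dendritic-like cells exceeded monocyte/macrophage-like cells in 6 of the 10 genes, and none was lower. In that pair 57.6% of all genes differed in either direction, and 3194 of the 11111 were higher in dendritic-like cells. Mthfd2 stood 2.18 ± 0.12 log2 units higher (edgeR adjusted p = 4.21e-11) and Slc7a5 1.96 ± 0.21 higher (edgeR adjusted p = 4.85e-07), each higher in 4 of 4 libraries. Chac1 was 2.69 ± 0.33 higher, Trib3 1.46 ± 0.38, Asns 1.34 ± 0.22 and Atf5 0.86 ± 0.20. Shmt2, Psat1, Atf4 and Slc3a2 did not pass, at 0.03 ± 0.14, -0.07 ± 0.25, -0.02 ± 0.07 and 0.11 ± 0.08. In control libraries alone, Trib3 (0.84) and Atf5 (0.39) did not pass, while Atf4 (-0.19) and Psat1 (-0.44) were lower, and Chac1 had too few counts to be tested. Psat1 was also lower without DKO 2 (-0.60).

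T-like cells exceeded monocyte/macrophage-like cells in Slc7a5 (1.53 ± 0.20, edgeR adjusted p = 2.20e-06), Asns (1.00 ± 0.20) and Mthfd2 (0.73 ± 0.12). They were lower in Atf4 (-0.40 ± 0.07) and Atf5 (-0.47 ± 0.20), against a background of 79.4%. The Atf5 call was lost without control 1 (-0.45) and without DKO 2 (-0.33), and Trib3 passed without DKO 1 (-0.93). NK-like cells exceeded monocyte/macrophage-like cells in Slc7a5 (1.54 ± 0.26, edgeR adjusted p = 4.88e-05), Slc3a2 (0.40 ± 0.08), Shmt2 (0.44 ± 0.15) and Atf4 (0.23 ± 0.08). They were lower in Atf5 (-1.29 ± 0.32), where 72.2% of all genes differed. The Shmt2 call was lost without DKO 2 (0.34), and that of Atf4 without control 2 (0.20) or DKO 1 (0.16). Asns passed without DKO 2 (-0.92). Both lymphoid classes and the dendritic class thus lay above the monocyte/macrophage class in Slc7a5, the transporter's light chain.

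Dendritic-like cells also stood above T-like cells in 5 genes and below them in none. Of all genes 70.5% differed in either direction, and 4035 of the 11111 were higher in dendritic-like cells. T-like minus dendritic-like values were -2.03 ± 0.39 for Chac1, -1.53 ± 0.44 for Trib3, -1.44 ± 0.12 for Mthfd2, -1.33 ± 0.23 for Atf5 and -0.38 ± 0.08 for Atf4. The Trib3 call was lost without DKO 2 (-0.97). Slc7a5, at -0.43 ± 0.22, did not pass in this pair but did without DKO 1 (-0.72). Asns passed without DKO 1 as well (-0.54), and Psat1 without DKO 2 (0.85).

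NK-like cells were above dendritic-like cells in Shmt2 (0.41 ± 0.17), Slc3a2 (0.28 ± 0.08) and Atf4 (0.25 ± 0.08). They were below in Mthfd2 (-2.45 ± 0.16), Chac1 (-2.41 ± 0.54), Atf5 (-2.15 ± 0.32) and Asns (-1.59 ± 0.33), and 67.2% of all genes differed. The Shmt2 call was lost on leaving out any 1 library (0.34 to 0.49), and those of Slc3a2 (0.22) and Atf4 (0.20) without control 1, where Trib3 passed (-1.52). NK-like cells exceeded T-like cells in Atf4 (0.63 ± 0.08, edgeR adjusted p = 1.28e-06) and Slc3a2 (0.41 ± 0.08). They were lower in Mthfd2 (-1.01 ± 0.17) and Asns (-1.24 ± 0.33), against 35.8% of all genes. Without DKO 1 the Asns call was lost (-0.68) and Trib3 passed (1.49), and without DKO 2 Atf5 passed (-1.52).

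For Mthfd2 the order of the classes was dendritic-like, T-like, then monocyte/macrophage-like and NK-like cells, and the last 2 did not differ beyond their spread (-0.27 ± 0.17), though they did without DKO 2 (-0.64). For Slc7a5 dendritic-like, T-like and NK-like cells did not differ among themselves in this fit, and all 3 were above monocyte/macrophage-like cells. Several of these values depend on which cells count as T-like or NK-like. Under a finer clustering, 285 of the 408 cells of the Gzmg cluster 14 joined the T class and 118 the NK class, and that cluster held the highest Slc7a5 level of all large clusters.

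Neutrophil-like cells were the one further class with at least 50 cells in each library, and the rule did not use them. Only Atf4 and Slc3a2 passed the filter there. Atf4 was at 421 and 364 CPM in control against 471 and 424 CPM in DKO, on 75 to 234 UMIs. The DKO libraries lay above the control libraries in CPM, but the fitted difference was 0.04 ± 0.24 (edgeR adjusted p = 0.974). Slc3a2 was at 424 and 241 against 340 and 209 CPM, with overlap (log2 -0.36 ± 0.30, edgeR adjusted p = 0.769). Neither passed, and 0.0568% of the 3522 genes tested did. Over those genes 8.69% had an unadjusted p below 0.05, and 29.2% had both DKO libraries above both control libraries. In either direction, 1428 of the 3522 did not overlap, of which 1030 were higher in DKO and the rest lower. Chac1 had 4 and 3 UMIs in control against 10 and 5 in DKO neutrophil-like cells, too few for the fit. Mthfd2 had 3 and 3 UMIs against 1 and 0, and Psat1 1 and 1 against 0 and 0, also too few. Of all 10 genes, 3 were higher and 2 lower in both DKO libraries in CPM, and 5 overlapped.

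Within single clusters the 10 genes are described without a test, since the clusters come from the cells of the rule. Of 18 clusters with at least 50 cells in each library, Atf4 was higher in both DKO libraries than in both control libraries in 16, Slc7a5 in 12 and Atf5, Mthfd2 and Trib3 in 11 each. Asns and Shmt2 were so in 10 clusters, Slc3a2 and Chac1 in 9 and Psat1 in 4. Psat1 was lower in both DKO libraries in 4 clusters and Mthfd2 in 1, and the other 8 genes in 0. These counts had no floor on UMIs. In the neutrophil-like cluster 16, where both were lower, Mthfd2 rested on 3, 3, 1 and 0 UMIs and Psat1 on 1, 1, 0 and 0. In the unnamed Gm42418 cluster 0, where Slc7a5 was higher, Slc7a5 rested on 4, 0, 2 and 10 UMIs. Over all genes with at least 10 UMIs in a cluster, between 12.9% and 30.5% were higher in both DKO libraries.

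The Cd8b1 cluster 4, of 1691 CD8 T-like cells, had all 10 genes higher in both DKO libraries, where 30.5% of all genes were. Slc7a5 there was at 13 and 7.41 CPM in control against 38.2 and 36.7 CPM in DKO, and Asns at 13.4 and 13 against 28.3 and 33.2 CPM. In the Foxp3 cluster 11, of regulatory T-like cells, 1 of 10 genes was so (23.9% of all genes), Atf4, at 179 and 165 against 263 and 237 CPM. That cluster held 107 to 171 cells per library, and the part of low counts in this was not tested. Slc3a2 overlapped there on 129, 93, 142 and 194 UMIs, and Mthfd2 on 31, 26, 46 and 46. Slc7a5 there rested on 1, 3, 11 and 6 UMIs, Asns on 2, 5, 10 and 4 and Trib3 on 0, 1, 8 and 2. The Cd4 cluster 1 lay between, with 8 of 10 (25.8% of all genes), and with Slc7a5 at 11.4 and 6.36 against 16.4 and 13.8 CPM. Whether the T-like clusters differed from each other was not tested.

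The unnamed Trdc cluster 12 had Cd3e in 83.5% of cells and Klra receptor genes among its leading genes. It also had all 10 genes higher in both DKO libraries, where 24.7% of all genes were. Chac1 there rested on 0, 0, 3 and 6 UMIs, below the floor of 10 UMIs used for that share. Slc7a5 was at 10.8 and 3.72 CPM in control against 26.5 and 22.1 CPM in DKO there. With cluster 12 counted as T-like, a choice made after seeing the data, the T values were 1.5 for Slc7a5, 1.17 for Asns and 2.16 for Trib3.

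The Gzmg cluster 14, of 408 cells led by the granzyme genes Gzmg, Gzmf, Gzmd and Gzme with histone genes, had the highest Slc7a5 level of the 20 clusters with at least 100 cells, at 80.7 CPM. Its Slc7a5 was at 69.0 and 31.0 CPM in control against 117 and 92.1 CPM in DKO. Shmt2 was at 72.5 and 51.4 against 132 and 140 CPM, and Trib3 at 16.4 and 7.91 against 38.7 and 31.5 CPM. Of the 10 genes, 9 were higher in both DKO libraries there (25% of all genes), and Atf5 overlapped.

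The 2 dendritic-like clusters had different levels. The Cd209a cluster 9 (871 cells) held Slc7a5 at 27.1 CPM, Chac1 at 7.77 CPM and Asns at 19.98 CPM over the 4 libraries. The Ccl22 cluster 17 (366 cells), which also expressed the migration receptor Ccr7, held them at 3.15, 0.350 and 2.80 CPM. Mthfd2 ran the other way, at 118 CPM in cluster 9 and 248 CPM in cluster 17, its highest level of the 20 clusters. In cluster 9 Atf5 was at 22.8 and 12.5 CPM in control against 53.3 and 50.9 CPM in DKO, and Asns at 10.7 and 9.86 against 21.2 and 32.1 CPM. In cluster 17 Slc7a5 rested on 1 to 3 UMIs per library, so the Slc7a5 values of the dendritic class come from cluster 9.

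Within the monocyte/macrophage-like cells, the Cdh1 cluster 5, with Ccr2 and Chil3 among its leading genes, had 9 of 10 genes higher in both DKO libraries (22.9% of all genes). Atf5 there was at 14.9 and 14.1 CPM in control against 22.3 and 61.1 CPM in DKO. The Cd163 cluster 3 had 3 of 10 (16.7% of all genes) and the Rsad2 cluster 7, led by interferon-induced genes, 1 of 10 (21.2% of all genes). Chac1 in the Hp cluster 10, with monocyte genes such as Plac8 and Vcan, was at 0.693 and 0.179 CPM in control against 7.82 and 12.2 CPM in DKO. Those values rest on 2, 1, 13 and 20 UMIs, against 15, 11, 45 and 62 in the whole class. Atf4 in cluster 10 was at 256 and 205 against 318 and 400 CPM.

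**Figure D3:**
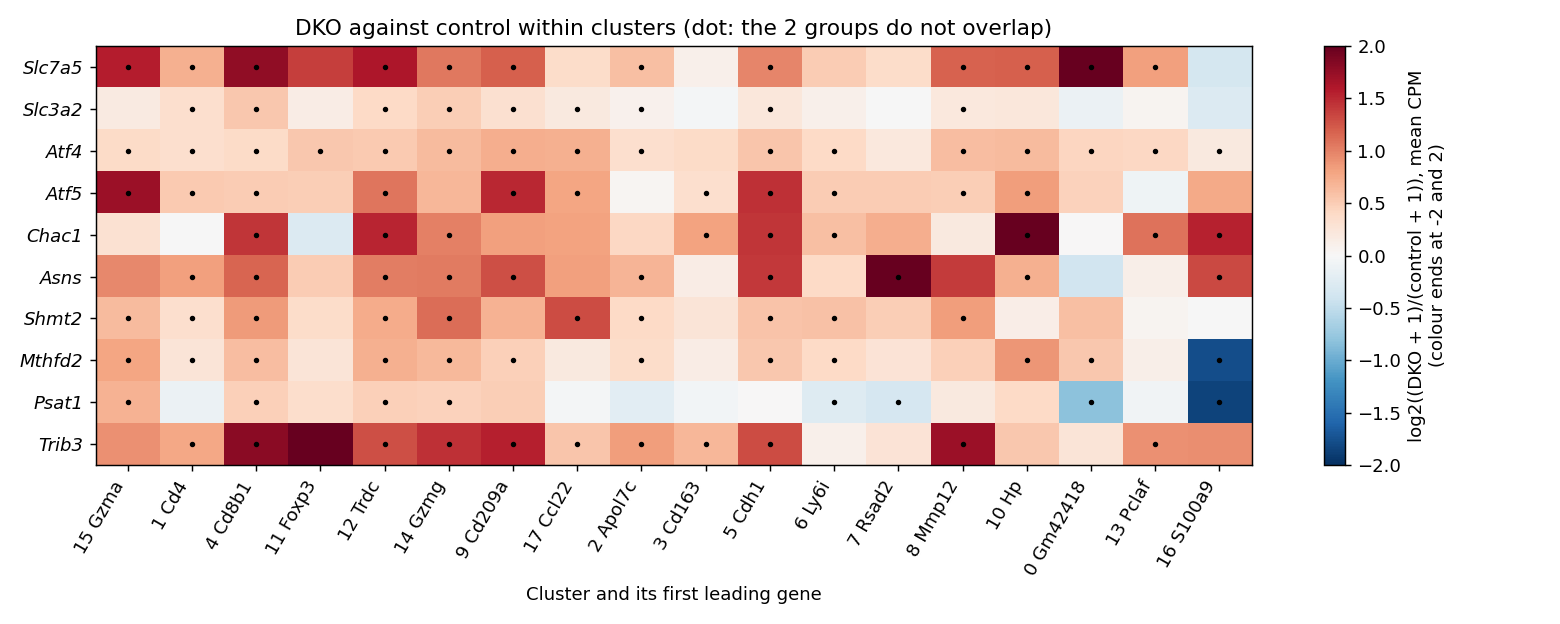
Log2 ratio of the mean DKO to the mean control level, each plus 1 CPM (colour, ending at -2 and 2), for the 10 genes (rows) in 18 clusters with at least 50 cells in each library (columns, named by a leading gene). A black dot marks groups that do not overlap: the Cd8b1 and Trdc columns have 10 dots each, the Foxp3 and Rsad2 columns few.

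The Col1a2 cluster 19, of 177 cells with tumour or fibroblast markers, held the highest levels of Atf4, Atf5, Chac1, Asns, Shmt2, Psat1 and Trib3 among the 20 clusters. Summed over the 4 libraries these were 479, 131, 36.8, 196, 154, 141 and 56.5 CPM. Such cells passed the CD45+ sort in small numbers (55, 57, 37 and 28). In them Chac1 was at 32.8 and 8.81 CPM in control against 52.3 and 46.8 CPM in DKO, and Atf4 at 424 and 302 against 564 and 619 CPM. Their median depth differed widely, at 12015, 3138, 43870 and 5625 UMIs per cell, and 2 libraries held fewer than 50 cells, so they were not tested. Slc3a2 was highest in the NK-like cluster 15 (338 CPM).

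**Figure D4:**
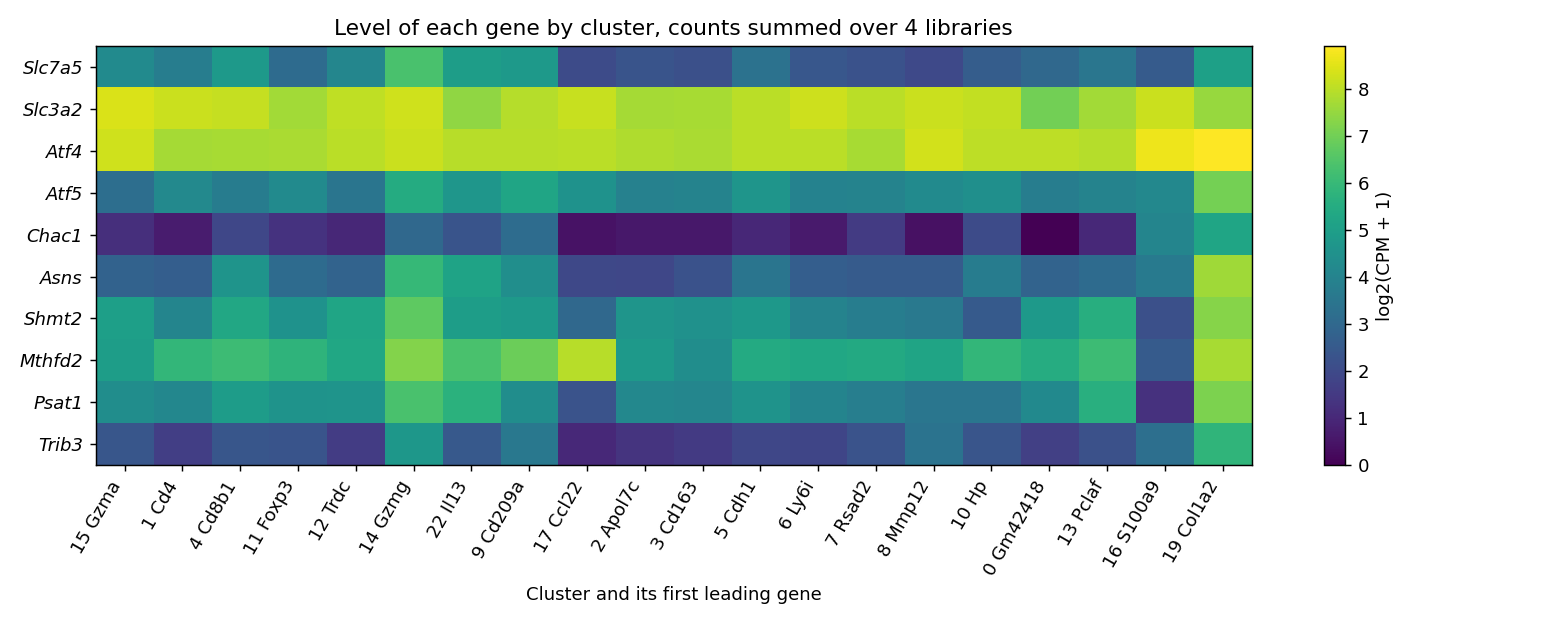
Level of the 10 genes (rows) as log2(CPM + 1), from counts summed over the 4 libraries, in the 20 clusters of at least 100 cells (columns, named by a leading gene). The Col1a2 cluster is brightest for 7 genes, Slc7a5 peaks in the Gzmg cluster (80.7 CPM) and Mthfd2 in the Ccl22 cluster (248 CPM).

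Over the 20 clusters, the levels of some of the genes went together. As a description over clusters that share the same 4 libraries, Pearson's r of log2(CPM + 1) was 0.93 between Shmt2 and Psat1, 0.86 between Asns and Trib3, and 0.85 between Asns and Chac1. Slc3a2 did not go with its partner Slc7a5 (r = -0.02). Among 9278 genes with enough counts, the closest to Slc7a5 were Timm17b, Mars and Phgdh (r = 0.88, 0.87 and 0.86). Mars charges methionine tRNA and Phgdh starts serine synthesis. The closest to Shmt2 were Ncl, Mthfd1 and Rcc2 (0.98, 0.98 and 0.95), and to Psat1 Yars, Cmss1 and Rnps1 (each 0.95). The closest to Mthfd2 were Rbm17, Dctn2 and Sumo2 (0.93, 0.90 and 0.89).

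The closest to Asns were Slc1a4, a transporter of serine and alanine, Bcat1, an aminotransferase of branched-chain amino acids, and Slc6a9, a glycine transporter (0.91, 0.88 and 0.87). Trib3 was closest to Cars, Asns and Chac1 (0.87, 0.86 and 0.84), and Chac1 to Asns, Trib3 and Eml1 (0.85, 0.84 and 0.79). Atf5 was closest to H1fx, Kdelr3 and Plpp1 (0.90, 0.85 and 0.84), Atf4 to Snai1, Klf5 and Lipg (0.85, 0.84 and 0.83), and Slc3a2 to Bcl2l11, Tmem243 and Fam13b (0.75, 0.73 and 0.71). The Col1a2 cluster is extreme for several of them. Without it, Asns and Chac1 were at 0.73, Atf5 and Plpp1 at 0.55 and Slc7a5 and Mars at 0.88.

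The wider pathway was read from 6 lists of 98 further genes, fitted with all genes. Of these, 74 were tested in NK-like, 83 in T-like, 81 in dendritic-like and 87 in monocyte/macrophage-like cells. By the edgeR test with Benjamini-Hochberg adjustment, 0 passed in each class. Over all genes tested, 0.254% passed in NK-like, 0.0382% in T-like, 0.0% in dendritic-like and 0.0158% in monocyte/macrophage-like cells. At an unadjusted p below 0.05 there were 13 higher and 1 lower list genes in NK-like cells, 12 and 0 in T-like cells, 14 and 1 in dendritic-like cells and 15 and 3 in monocyte/macrophage-like cells. DESeq2 called 0, 0, 0 and 3, the 3 being Gdf15, Slc7a2 and Ddit4. Over all genes at that unadjusted limit, 12.2%, 14.1%, 8.05% and 9.96% passed, and in dendritic-like cells DESeq2 called 6 genes where edgeR called 0. Positive values numbered 50 of 74, 56 of 83, 59 of 81 and 56 of 87 genes tested, where 49.9%, 51.4%, 50.6% and 51.0% of all genes were positive in the same classes. Genes named as highest, lowest or leading a list are so among its genes with at least 20 CPM in the higher group.

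The cytosolic aminoacyl-tRNA synthetases, which load amino acids onto tRNA, were all 20 tested in each class. Values were positive for 15 in NK-like, 16 in T-like, 17 in dendritic-like and 12 in monocyte/macrophage-like cells, with median log2 values of 0.30, 0.13, 0.21 and 0.03. Both DKO libraries lay above both control libraries for 10, 14, 14 and 6 of the 20, where 27.3%, 31.2%, 26.5% and 21.6% of all genes did so. Aars, the alanine enzyme, had the highest value in 3 classes, at 37.1 and 27.3 CPM in control against 47.0 and 65.4 CPM in DKO NK-like cells (log2 0.74). In dendritic-like cells it was at 44.4 and 27.5 against 54.0 and 87.3 CPM (log2 0.89), and in monocyte/macrophage-like cells at log2 0.20. In T-like cells Cars, the cysteine enzyme, led with 10.5 and 14.5 against 24.6 and 19.7 CPM (log2 0.79). None of these passed the adjusted test, and the lowest values were those of Qars (-0.06), Rars (-0.12) and Farsa (-0.23 and -0.22) in the order of the classes.

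Amino acid transporters beside LAT1 had median log2 values of 0.32, 0.20, 0.18 and 0.18 in the 4 classes, with 7 of 10, 10 of 12, 11 of 14 and 12 of 16 tested genes positive. Slc38a2, a glutamine and alanine carrier, was at 401 and 306 CPM in control against 432 and 562 CPM in DKO NK-like cells (log2 0.42). In T-like cells it was at 299 and 219 against 343 and 437 CPM (log2 0.52). Slc7a2, an arginine transporter, was at 481 and 322 CPM in control against 725 and 1020 CPM in DKO monocyte/macrophage-like cells (log2 1.09). It is also a leading gene of the Apol7c cluster 2, which held 10.4% and 7.69% of the control and 20.5% and 27.8% of the DKO cells of that class. Slc7a2 led the list in dendritic-like cells at log2 0.59. Among transporters with at least 20 CPM in the higher group, the lowest were Slc38a9 (-0.07), Slc43a2 (0.12 and -0.11 in T-like and dendritic-like cells) and Slc7a7 (-0.32).

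Of the genes of serine, one-carbon and other amino acid synthesis, 7 of 9, 6 of 13, 6 of 10 and 9 of 13 tested had positive values. Phgdh, which starts serine synthesis, was at 17.6 and 10.3 CPM in control against 21.0 and 41.1 CPM in DKO dendritic-like cells (log2 1.07), and at log2 0.61 in NK-like cells with overlap. Aldh18a1, of proline synthesis, led in T-like cells (0.37) and Got1, an aspartate aminotransferase, in monocyte/macrophage-like cells (0.27). The lowest in NK-like and T-like cells was Psph (-0.29 and -0.13), which removes the phosphate in the last step of serine synthesis.

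Stress response transcripts were positive for 10 of 13, 10 of 15, 12 of 14 and 10 of 15 tested genes. Xbp1, a factor of the unfolded protein response, was at 66.3 and 75.8 CPM in control against 105 and 118 CPM in DKO NK-like cells (log2 0.58). Ppp1r15a, which directs the removal of the eIF2 alpha phosphate, led in T-like cells (0.41) and Jdp2, a repressor of the AP-1 family, in dendritic-like cells (0.85). Ddit4, an inhibitor of mTORC1, was at 16.9 and 23.5 against 40.5 and 33.8 CPM in monocyte/macrophage-like cells (log2 0.85), and at -0.23 in dendritic-like cells. The lowest of the others were Atf3 in NK-like (-0.63), Jdp2 in T-like (-0.31) and Nupr1 in monocyte/macrophage-like cells (-0.41).

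The eIF2 alpha kinases and their partners had medians near 0, at 0.05, 0.00, 0.06 and -0.02, with 6 of 11, 6 of 12, 7 of 12 and 5 of 12 positive. Impact, an inhibitor of the kinase Gcn2, led in T-like cells at 16.9 and 11.0 against 19.1 and 29.9 CPM (log2 0.70) and in dendritic-like cells (0.83). Ppp1r15b led in NK-like (0.21) and Eif2b2 in monocyte/macrophage-like cells (0.50). The lowest were Eif2ak2, the double-stranded RNA kinase, in the lymphoid classes (-0.25 and -0.29) and Eif2s1, eIF2 alpha itself, in the other 2 (-0.20 and -0.22). Growth and nutrient regulators had medians of -0.04, 0.08, 0.01 and 0.09, with Sesn3 (0.37), Rps6kb1 (0.40), Nfe2l2 (0.36) and Myc (0.38) at the top of the list in the 4 classes. At the bottom were Sesn1 (-0.38), Nfe2l2 (-0.16) and, in both myeloid classes, Rptor (-0.42 and -0.29).

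**Figure D5:**
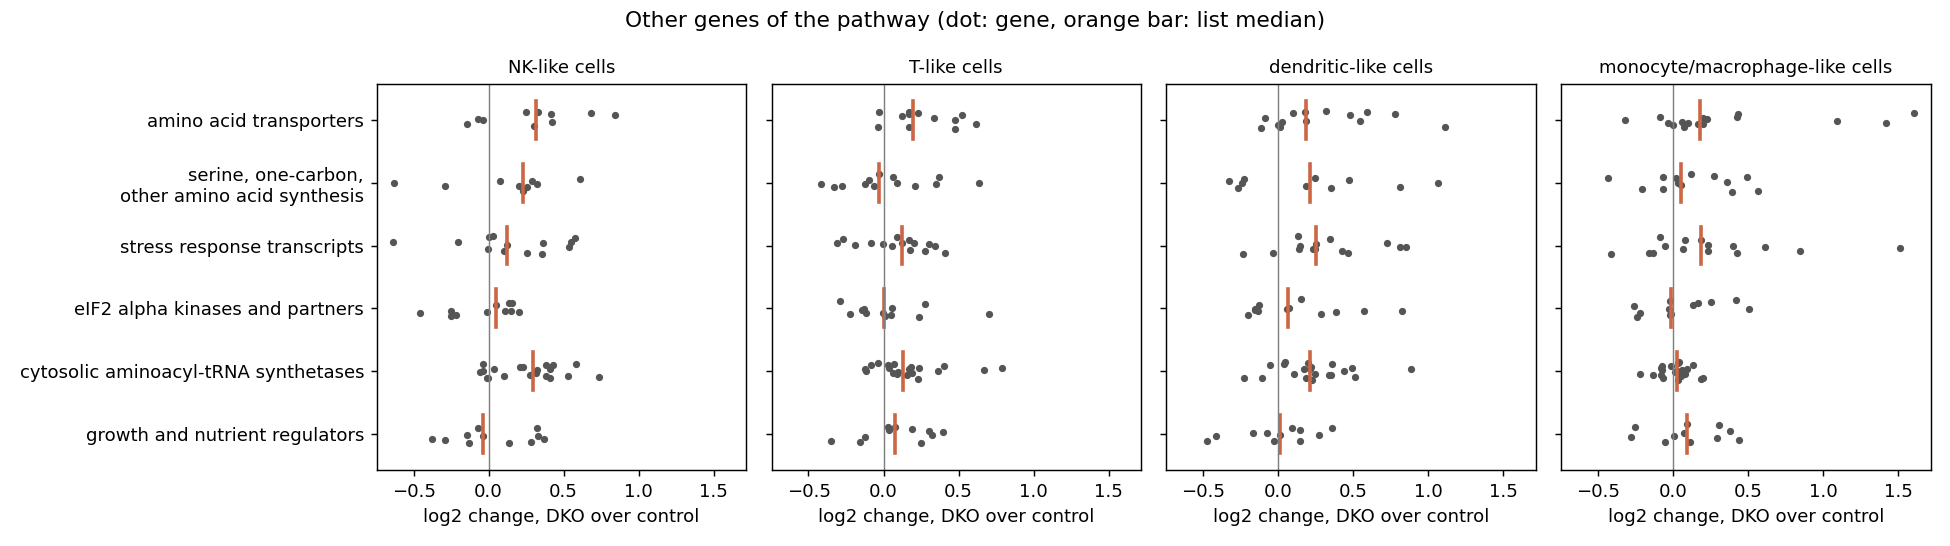
Log2 change, DKO over control (horizontal axis), of each tested gene of the 6 lists (rows) in the 4 classes, with the list median as an orange bar. Medians run from -0.04 to 0.32, synthetases and transporters lie mostly right of 0 in NK-like, T-like and dendritic-like cells, and no gene passed the adjusted test.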

How the data were processed

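Live CD45+ cells of 4 pooled tumour libraries were measured with 10x Genomics 3′ v3 chemistry. The deposited values were UMI counts per gene and barcode, per the file headers. The tools named were Cell Ranger, R 3.6.0 and Seurat 3.1.0, per the submitters' processing notes, which list the builds GRCh38 and mm10. The mouse build was used here. The matrix software was version 3.1.0, per the file headers. The lowest count was 500 UMIs per barcode, so shallower barcodes were absent and free RNA could not be estimated or removed.

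Cells needed 200 genes, 500 UMIs and at most 10% mitochondrial UMIs. Scrublet marked 236 to 678 barcodes per library as doublets, at a rate set by the number of barcodes, and these were removed. Clustering (scanpy 1.11.5, 2000 variable genes less the 10 genes and the lists, 30 components, 20 neighbours, Leiden resolution 1) used no integration of libraries. Clusters took a name from marker lists, with at least 3 detected markers.

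UMI counts were added up over the cells of a class in each library and tested with edgeR 4.0.16 (TMM, filterByExpr, robust quasi-likelihood F test, Benjamini-Hochberg, threshold 0.05), and with DESeq2 1.42.0 as an alternative. The test was checked on simulated data. The library is the replicate. Its p-values measure the spread between 2 pools per group, and an exact permutation test of 2 against 2 cannot go below 0.333. Intervals from UMI numbers were not used. The genes, lists and tests were chosen with earlier results of these data known.

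All 10 genes are named. Of each list, the text names genes past the threshold, and otherwise the highest and the lowest log2 value among genes with 20 CPM in the higher group. One gene that this rule names is not reported here. Of the genes closest over clusters it names 3 each. Gdf15 and the genes of cluster examples were chosen after their values were seen. A sequence window of Slc7a5 was not used here. Shares of all genes within clusters, over genes with at least 10 UMIs, were added after seeing the data.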

Additional observations from a re-analysis of the deposited data

How the results depend on the processing

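Of 470 log2 values of the 10 genes under other settings, 466 kept the sign of the main value. The 4 exceptions, of Psat1 and Slc3a2, stand in the report. The rule chose the genes on this contrast, and the settings refit the same 4 libraries, so nothing is read from this share. Without 1 library the median log2 value of the genes ran from 0.27 to 0.86 in NK-like, 0.37 to 0.52 in T-like, 0.46 to 1.41 in dendritic-like and 0.25 to 0.67 in monocyte/macrophage-like cells.

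Counts of called genes depended on the settings, and causes were not tested. With 22 genes called in NK-like cells, DESeq2 called 6, no filter 129, doublets kept 9 and Leiden resolution 2 5. With 4 called in T-like cells, DESeq2 called 32, library totals alone 11, no filter 289, doublets kept 51 and the 5% mitochondrial limit 2. With 0 called in dendritic-like cells, DESeq2 called 6 and no filter 134. With 2 called in monocyte/macrophage-like cells, DESeq2 called 158, no filter 62 and the 5% limit 4. With 2 called in neutrophil-like cells, DESeq2 called 1 and doublets kept 8. Without 1 library the counts ran from 18 to 233 in NK-like, 2 to 711 in T-like, 0 to 478 in dendritic-like, 4 to 479 in monocyte/macrophage-like and 9 to 69 in neutrophil-like cells.

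Of the 98 list genes, with 0 called in each class, no filter called 2 in NK-like (Aars, Xbp1), 5 in T-like, 5 in dendritic-like and 1 in monocyte/macrophage-like cells (Gdf15). Doublets kept called 1 in T-like cells (Slc7a1), and DESeq2 called 3 in monocyte/macrophage-like cells. Without 1 library the list counts ran from 0 to 7 in NK-like (7 without control 1, 4 without DKO 1), 0 to 3 in T-like (3 without DKO 1, 2 without DKO 2) and 0 to 9 in dendritic-like cells (9 without DKO 1). In monocyte/macrophage-like cells they ran from 0 to 6 (6 without control 1, 2 without control 2, 1 without DKO 2).

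The replicate numbers are not stated to pair libraries, and with 2 pairs this could not be settled: same-numbered libraries deviated from their group means with correlations of -0.08 (NK-like), -0.23 (T-like), -0.19 (dendritic-like) and -0.47 (monocyte/macrophage-like). With the replicate number as a block, 29, 119, 0, 28 and 0 genes were called in NK-like, T-like, dendritic-like, monocyte/macrophage-like and neutrophil-like cells. List genes called with the block were 0, 2 (Cars, Iars), 0 and 1 (Gdf15), and the median log2 value of the genes was 0.66, 0.42, 0.90 and 0.50.

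Of the 10 genes, the number that differed between classes changed as follows. In DKO libraries alone the NK-T count was 1 instead of 4 and the NK-dendritic count 4 instead of 7. With doublets kept the counts were 10 (NK-monocyte/macrophage, from 5), 8 (T-dendritic, from 5) and 8 (T-monocyte/macrophage, from 5), and at Leiden resolution 2 they were 9 (NK-monocyte/macrophage) and 8 (T-monocyte/macrophage). Without 1 library the counts were 4 to 5 (NK-T), 5 to 6 (NK-dendritic), 4 to 6 (NK-monocyte/macrophage), 4 to 7 (T-dendritic), 4 to 6 (T-monocyte/macrophage) and 6 (dendritic-monocyte/macrophage).

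Class membership moved with the clustering. With doublets kept, 286 of the 408 cells of the Gzmg cluster 14 were T-like and 118 NK-like. A Cd4-led cluster of 1826 cells was then unnamed and so outside the T class. The T class held 554 to 1073 cells per library instead of 699 to 1363. A Retnla-led cluster of 291 cells was dendritic-like, as was another of 241 cells at Leiden resolution 2. With doublets kept, NK minus dendritic became 0.16 for Asns, NK minus monocyte/macrophage 1.29 for Asns and 0.38 for Mthfd2, T minus dendritic 0.60 for Slc7a5, 0.71 for Asns and 0.051 for Trib3, and T minus monocyte/macrophage 0.033 for Atf5 and 1.35 for Trib3. At Leiden resolution 2, NK minus monocyte/macrophage became 1.12 for Asns and 0.28 for Mthfd2, T minus dendritic 0.45 for Slc7a5 and T minus monocyte/macrophage 1.04 for Trib3. Neutrophil-like Atf4 became -0.0091 with DESeq2, and without 1 library it ran from -0.10 (without DKO 1) to 0.13.

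Depth limited Chac1, Trib3 and Asns in NK-like cells, at 0 to 27 UMIs per library, and 8 of the 10 genes in neutrophil-like cells.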

Other observations

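Gdf15, a secreted stress cytokine, was chosen after its values were seen. In monocyte/macrophage-like cells it was at 4.46 and 4.04 CPM in control against 13.8 and 10.7 CPM in DKO, on 192, 193, 492 and 322 UMIs (log2 1.51 ± 0.18, edgeR adjusted p = 0.179, higher in 2 of 2 DKO libraries). In NK-like, T-like and dendritic-like cells it had 0 to 7 UMIs per library. Plasmacytoid dendritic-like cells, with 14 to 34 cells per library, held Slc7a5 at 73.5 and 36.7 CPM in control against 163 and 117 CPM in DKO, on 19, 4, 20 and 35 UMIs. Atf4 in them was at 174 and 128 against 293 and 298 CPM, on 45, 14, 36 and 89 UMIs. Mast or basophil-like cells held Slc7a5 at 145 and 103 against 221 and 68.3 CPM, on 17, 3, 13 and 7 UMIs, with overlap. These small classes were not tested.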
